A study of Mus musculus with 6 samples.

Results

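The 10 genes described here encode ADAMTS proteases, some of which cut the matrix of cartilage. The genes are Adamts1, Adamts4, Adamts5, Adamts6, Adamts7, Adamts8, Adamts9, Adamts12, Adamts14 and Adamts15. They were picked by name, and each was read from the probe sets that the platform annotation gives to that gene alone, taking the brightest on average where there were several. All 10 were measured, among 22180 genes in all. RNA came from primary articular chondrocytes of wild-type ICR mice aged 5 days, grown as a monolayer from femoral condyle and tibial plateau cartilage. There were 3 arrays of cells given IL-1β, a proinflammatory cytokine, with RNA taken after 24 h, and 3 arrays of untreated cells. The labels call the arrays of each group biological replicates, without naming the animals or cultures behind them, so that p-values measure only the spread between these arrays. Cells had been kept in culture medium with serum, and a monolayer of newborn mouse cells is not adult cartilage.

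ADAMTS proteases are secreted zinc metalloproteases with a disintegrin-like domain and thrombospondin-type repeats, through which they bind the matrix. They are made as inactive proenzymes, and furin-like proprotein convertases remove the prodomain. The aggrecanases among them cut the core protein of aggrecan, the large proteoglycan that lets cartilage resist compression, and others cut COMP (cartilage oligomeric matrix protein), versican or the propeptides of fibrillar collagens. In mouse models of osteoarthritis Adamts5 is the aggrecanase gene on which cartilage loss depends most.

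Signals are log2 values normalized by the authors with RMA (robust multiarray average), 1 for each probe set on each array. A background level of 4.57 was set by genes of smell, pheromone and taste receptors, not known to act in chondrocytes, as the value under which 95% of the means of their 1443 probe sets lay. A call required a limma p under 0.05 once adjusted by Benjamini and Hochberg's procedure across the 22180 genes. Each change is given with its standard error (SE) and 95% confidence interval (CI) where it matters. Differences are IL-1β-treated minus untreated, so that a positive log2 fold change means a higher signal with IL-1β. Levels of different probe sets were not set against each other, since probes differ in brightness. Array medians lay between 4.66 and 4.73. All 9 chondrocyte markers examined, among them Col2a1, Acan and Sox9, lay above background in both groups and all 9 were lower with IL-1β, their summed signal being 13.79 to 13.95 (log2) on the IL-1β arrays and 14.81 to 14.95 on the untreated arrays. All 6 fibroblast and synovium markers also lay above background in both groups, and 3 of them (Pdgfra, Fap and Prg4) were higher with IL-1β. Thy1, Col1a1 and Cd55 did not pass. The summed signal of all 6 was 12.08 to 12.28 (log2) on the IL-1β arrays and 11.59 to 11.74 on the untreated arrays. Prg4 rose the most of them, from a mean of 7.34 to 10.19, so that this sum does not show a rise of the markers as a set. Of 5 macrophage markers, Ptprc, Adgre1 and Itgam were under background in both groups. Of the other macrophage markers Cd68 was higher with IL-1β, with a mean of 6.91 against 5.69, and Csf1r did not pass (limma adjusted p = 0.482). The summed signal of all 5 was 7.38 to 7.52 (log2) on the IL-1β arrays and 6.66 to 6.88 on the untreated arrays. Cd68 alone of the 5 passed, so that this sum does not show a rise of the macrophage markers as a set either. Of 4 endothelium markers 2 lay above background in each group, Kdr and Tek with IL-1β and Pecam1 and Kdr without it. Tek was higher with IL-1β (limma adjusted p = 0.0154), with a mean of 4.68 against 3.82 under background. Pecam1, Kdr and Cdh5 did not pass. All 4 muscle markers lay above background in both groups, with means of 4.73 to 5.81 with IL-1β and 4.93 to 6.22 without it, and 0 passed. Whether these signals came from muscle cells or from a background level set too low was not tested. The part of these shifts in the values below was not tested, and fewer cells of a type cannot be told apart from less RNA per cell in bulk RNA.

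Of the 10 genes, 4 rose with IL-1β (Adamts5, Adamts7, Adamts1 and Adamts9), 3 fell (Adamts14, Adamts6 and Adamts12) and 3 did not pass the test (Adamts4, Adamts8 and Adamts15). Among all genes tested 8.32% rose and 8.88% fell, 17.2% in either direction. The median log2 fold change of the 10 genes was 0.19, against -0.02 for all genes. Their changes went from -0.90 to 3.50 on the log2 scale, with no common direction. Groups did not overlap for 8 of the 10 genes, with all IL-1β arrays above all untreated arrays for 5 and below them for 3. Such a gap was found for 33.0% of all genes, upward for 15.0% and downward for 18.0%. With the limit of 1 on the log2 fold change that the methods add, Adamts5, Adamts7 and Adamts1 remained as risen and 0 as fallen, where this rule called 2.25% of all genes as risen and 1.45% as fallen. The t-test of the methods called 5 of the 10 as higher and 3 as lower at an unadjusted p under 0.05, where 12.0% of all genes were called as higher and 14.2% as lower. After Benjamini-Hochberg adjustment it called 4 as higher and 1 as lower (5.93% and 6.63% of all genes), and with the fold limit as well 3 and 0 (2.09% and 1.35% of all genes).

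**Figure D1:**
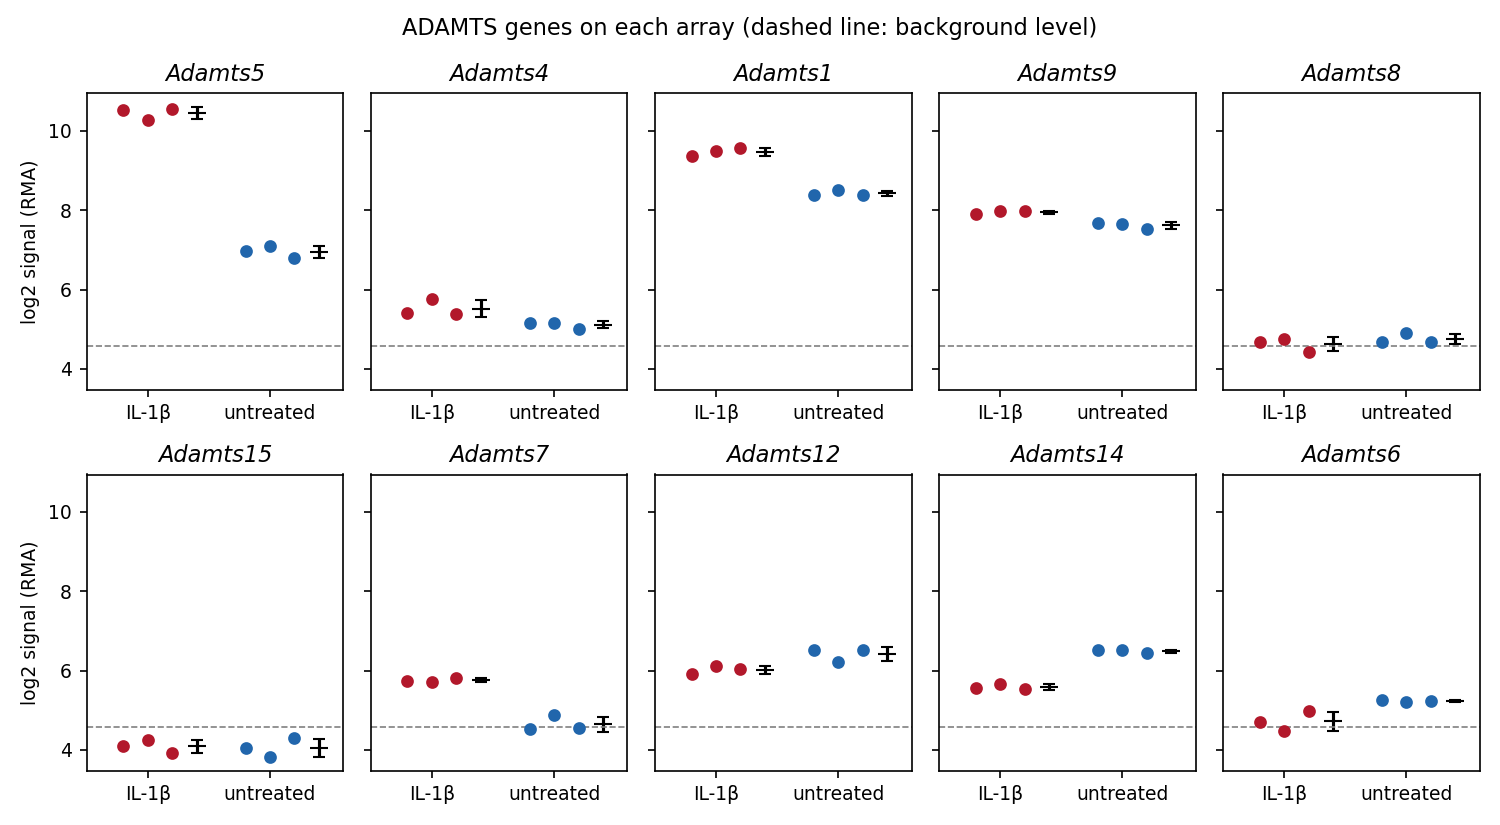
Log2 signal (y axis) of the 10 ADAMTS genes on each of 3 IL-1β arrays (red points, left) and 3 untreated arrays (blue points, right), with the mean and SD of each group in black and the background level of 4.57 as a dashed line. The gap between the groups is widest for Adamts5, at 3.18 on the log2 scale, and the groups overlap for Adamts8 and Adamts15 only.

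Adamts5 (Entrez 23794, probe set 17331720), the gene of the main cartilage aggrecanase in mice, rose the most. Its log2 signals were 10.52, 10.27 and 10.55 on the IL-1β arrays, against 6.96, 7.09 and 6.79 on the untreated arrays. Every treated array lay at least 3.18 above every untreated one, while arrays of the same group spread by an SD of 0.15 in each group. This made a log2 fold change of 3.50 (95% CI 3.23 to 3.77, SE 0.12, limma adjusted p = 5.37e-07), or 11.3-fold with an interval from 9.35 to 13.6. By size of rise as measured, Adamts5 stood at position 29 among the 22180 genes. The untreated mean of 6.95 was 2.38 above the background level on the log2 scale, so that the gene gave signal before treatment too. Adamts5 passed in all 17 alternative fits, with log2 fold changes from 3.42 to 3.66. These fits call at the adjusted p alone, here and below, and leave aside the fold limit of the methods.

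Adamts4 encodes the other aggrecanase best known for cutting aggrecan in cartilage. It had log2 signals of 5.40, 5.76 and 5.39 on the IL-1β arrays, against 5.17, 5.15 and 5.01 on the untreated arrays. IL-1β replicate 2 stood above the other treated arrays, and the groups did not overlap, with a gap of 0.22. At 0.41 (95% CI 0.13 to 0.68, SE 0.12), its log2 fold change missed the threshold (limma adjusted p = 0.0542). With replicate number as a block the gene passed (adjusted p = 0.0387). It passed under 5 of 17 alternative fits in all and in none of the 6 that left out 1 array (limma adjusted p = 0.0648 to 0.174). Signals of Adamts4 lay near the background level, 0.94 above it in treated and 0.54 above it in untreated cells on the log2 scale.

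The responses of these aggrecanase genes were set against each other within each array. The log2 signal of Adamts5 minus that of Adamts4 was 5.12, 4.51 and 5.16 on the IL-1β arrays, against 1.79, 1.95 and 1.78 on the untreated arrays. All treated arrays had a larger difference than all untreated arrays. The response of Adamts5 exceeded that of Adamts4 by 3.09 on the log2 scale (exact two-sided permutation test, p = 0.1, the smallest p that 3 against 3 arrays can give). Adamts4 lay only 0.94 above background in treated and 0.54 in untreated cells, and the part of this in the difference was not tested.

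Adamts1 encodes a protease that cuts versican and aggrecan and is known for its part in ovulation and for restraining vessel growth. Its log2 signals were 9.37, 9.49 and 9.56 on the IL-1β arrays, against 8.39, 8.50 and 8.38 on the untreated arrays, with no overlap. It rose 2.07-fold, a log2 fold change of 1.05 (95% CI 0.83 to 1.26, SE 0.10, limma adjusted p = 1.16e-04). The gene passed under all 17 alternative fits. In the GRCm38.p6 annotation Adamts1 and Adamts5 are neighbours, with no other protein-coding gene between them on chromosome 16. The neighbours rose together but by unequal amounts. Within arrays, the log2 signal of Adamts5 minus that of Adamts1 was 1.15, 0.78 and 0.99 with IL-1β, against -1.43, -1.40 and -1.59 without it. The response of Adamts5 exceeded that of Adamts1 by 2.45 on the log2 scale (exact two-sided permutation test, p = 0.1, again the smallest possible).

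RefSeq promoter sequences, from 250 bases before to 50 after the start of a gene, were at hand for 4 of the 10 genes, Adamts1, Adamts9, Adamts12 and Adamts14. Those of Adamts1 and Adamts14 are shown because these genes had the largest rise and the largest fall of the 4. Capitals mark TATAAA, the letters of a TATA box. Capitals also mark matches to GGGCGG, the core of a GC box to which Sp1-type factors bind. Both strands were searched, and a match on the other strand appears as its reverse complement. The Adamts1 promoter lies on the minus strand at chr16:85803064-85803363 (GRCm38.p6) and that of Adamts14 on the minus strand at chr10:61273370-61273669 (GRCm38.p6).
Adamts1: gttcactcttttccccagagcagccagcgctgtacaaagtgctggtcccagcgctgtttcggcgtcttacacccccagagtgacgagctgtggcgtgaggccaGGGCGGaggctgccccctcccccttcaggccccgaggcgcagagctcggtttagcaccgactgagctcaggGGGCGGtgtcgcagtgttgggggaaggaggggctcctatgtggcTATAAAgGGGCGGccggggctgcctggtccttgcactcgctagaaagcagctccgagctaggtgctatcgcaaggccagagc
Adamts14: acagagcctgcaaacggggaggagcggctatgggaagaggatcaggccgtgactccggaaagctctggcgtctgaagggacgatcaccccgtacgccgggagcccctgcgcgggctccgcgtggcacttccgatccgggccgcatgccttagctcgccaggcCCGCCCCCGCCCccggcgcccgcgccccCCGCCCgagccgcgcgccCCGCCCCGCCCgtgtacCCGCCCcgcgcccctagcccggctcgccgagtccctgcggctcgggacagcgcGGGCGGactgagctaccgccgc

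The Adamts1 promoter held 1 TATAAA, beginning at position -32 from the gene start, and 3 copies of GGGCGG. Of 32851 promoters of this length 13.6% held TATAAA, and no other promoter of the 4 did. The Adamts14 promoter held 7 copies of GGGCGG, with 1 pair of copies sharing a letter and another pair touching, the Adamts9 promoter 1 and the Adamts12 promoter 0, and 35.7% of all promoters held at least 1. The G and C content was 64.7% for Adamts1, 70.0% for Adamts9, 62.0% for Adamts12 and 76.7% for Adamts14, against a median of 52.7% over all promoters. The AP-1 letters TGANTCA (7.81% of all promoters), the RUNX letters TGTGGT (16.8%) and the NF-κB consensus (4.51%) were searched on both strands and were in none of these 4 windows. A match of letters does not show that a factor binds there, and 4 windows allow no comparison of genes that rose with genes that fell.

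Adamts9 encodes a large protease that cuts versican and aggrecan and is needed for development. It had 7.91, 7.98 and 7.97 on the IL-1β arrays, against 7.69, 7.64 and 7.53 on the untreated arrays, as log2 signals. The arrays did not overlap, with a gap of 0.22. Adamts9 rose by 0.33 on the log2 scale, or 1.26-fold (95% CI 0.13 to 0.54, SE 0.09, limma adjusted p = 0.0361). The call was lost in every fit with 5 of the 6 arrays (limma adjusted p = 0.0559 to 0.139) as well as with median centering (0.0551), with adjustment over all probe sets (0.0899) and without replicate 2 of both groups (0.0972).

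Adamts8 and Adamts15, which encode proteases with weaker or less studied aggrecanase activity, gave little signal. Adamts8 had log2 signals of 4.68, 4.76 and 4.43 with IL-1β, against 4.69, 4.90 and 4.69 without it. Both means lay within 0.19 of the background level, and the groups overlapped. Its log2 fold change was -0.14 (95% CI -0.40 to 0.13, limma adjusted p = 0.53), and a dimmer probe set of the gene had -0.09. Adamts15 had 4.09, 4.26 and 3.93 with IL-1β, against 4.05, 3.82 and 4.29 without it, all under the background level. No fold is given for Adamts15, whose measured log2 difference was 0.04 (limma adjusted p = 0.904, interval from -0.28 to 0.36). In the GRCm38.p6 annotation these genes too are neighbours. Unlike the neighbours Adamts1 and Adamts5, neither passed under any alternative run.

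Adamts7 and Adamts12 encode the related proteases that cut COMP, and they moved in opposite directions. Adamts7 had log2 signals of 5.75, 5.71 and 5.82 on the IL-1β arrays, against 4.53, 4.87 and 4.56 on the untreated arrays. Of the untreated arrays, replicates 1 and 3 lay just under the background level and replicate 2 above it, while all treated arrays lay more than 1 above it. Adamts7 rose 2.15-fold, a log2 fold change of 1.10 (95% CI 0.84 to 1.36, SE 0.11, limma adjusted p = 2.32e-04). The untreated mean of 4.66 was only 0.08 above background. The call held under all 17 alternative fits, with log2 fold changes from 1.04 to 1.24.

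Adamts12 had log2 signals of 5.91, 6.12 and 6.03 on the IL-1β arrays, against 6.53, 6.22 and 6.53 on the untreated arrays. Untreated replicate 2 lay nearest the treated arrays, leaving a gap of 0.10 between the groups. Adamts12 fell by 0.41 on the log2 scale, which is 1.33-fold lower (95% CI -0.67 to -0.14, SE 0.12, limma adjusted p = 0.0452). The call was lost with the replicate block (adjusted p = 0.0636) and when any 1 array other than untreated replicate 2 was left out (adjusted p = 0.0535 to 0.169), as well as with the methods' t-test (0.13) and with adjustment over all probe sets (0.118). Without untreated replicate 2 the log2 fold change was -0.51 (adjusted p = 0.0157). The confidence intervals of Adamts7 and Adamts12 lay on opposite sides of 0.

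Adamts14, which encodes a protease that removes the N-terminal propeptide of fibrillar procollagens, had the largest fall of the 10 genes. Its log2 signals were 5.55, 5.67 and 5.54 on the IL-1β arrays, against 6.51, 6.51 and 6.44 on the untreated arrays. The groups were 0.77 apart, and arrays within a group lay close together (SD 0.07 with IL-1β and 0.04 without it). The gene fell by 0.90 on the log2 scale, 1.87-fold (95% CI -1.11 to -0.70, SE 0.09, limma adjusted p = 1.88e-04), and passed under all 17 alternative fits. A dimmer probe set, under the background level on every array, had a log2 fold change of -0.07. The mean of both probe sets had -0.48 and still passed (limma adjusted p = 0.00639).

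Adamts6, related to Adamts10 and known for work on cell adhesion and microfibrils, had log2 signals of 4.71, 4.48 and 4.97 on the IL-1β arrays, against 5.26, 5.21 and 5.23 on the untreated arrays. Treated arrays were spread widely (SD 0.25) and untreated arrays hardly at all (SD 0.03), and IL-1β replicate 2 lay under the background level. Adamts6 fell by 0.51 on the log2 scale, 1.43-fold (95% CI -0.80 to -0.22, SE 0.13, limma adjusted p = 0.0252). It lost the call without any 1 array except IL-1β replicate 3 (adjusted p = 0.052 to 0.0832) and kept it without that array (-0.64, adjusted p = 0.00878). It also lost the call with the methods' t-test (0.116), with adjustment over all probe sets (0.0806) and without replicate 2 of both groups (0.0755).

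Ordered by log2 fold change, Adamts5 stood apart from the rest, with an interval above those of all other members. Adamts7 (1.10) and Adamts1 (1.05) followed with intervals that nearly coincided, and then Adamts4 (0.41) and Adamts9 (0.33) with intervals that overlapped. Adamts15 (0.04) and Adamts8 (-0.14) lay around 0. Adamts12 (-0.41), Adamts6 (-0.51) and Adamts14 (-0.90) were at the low end, each with an interval that overlapped that of its neighbour in the order. Of these differences in response, those of Adamts5 from Adamts4 and from Adamts1 were tested, as given above, and the others were not.

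**Figure D2:**
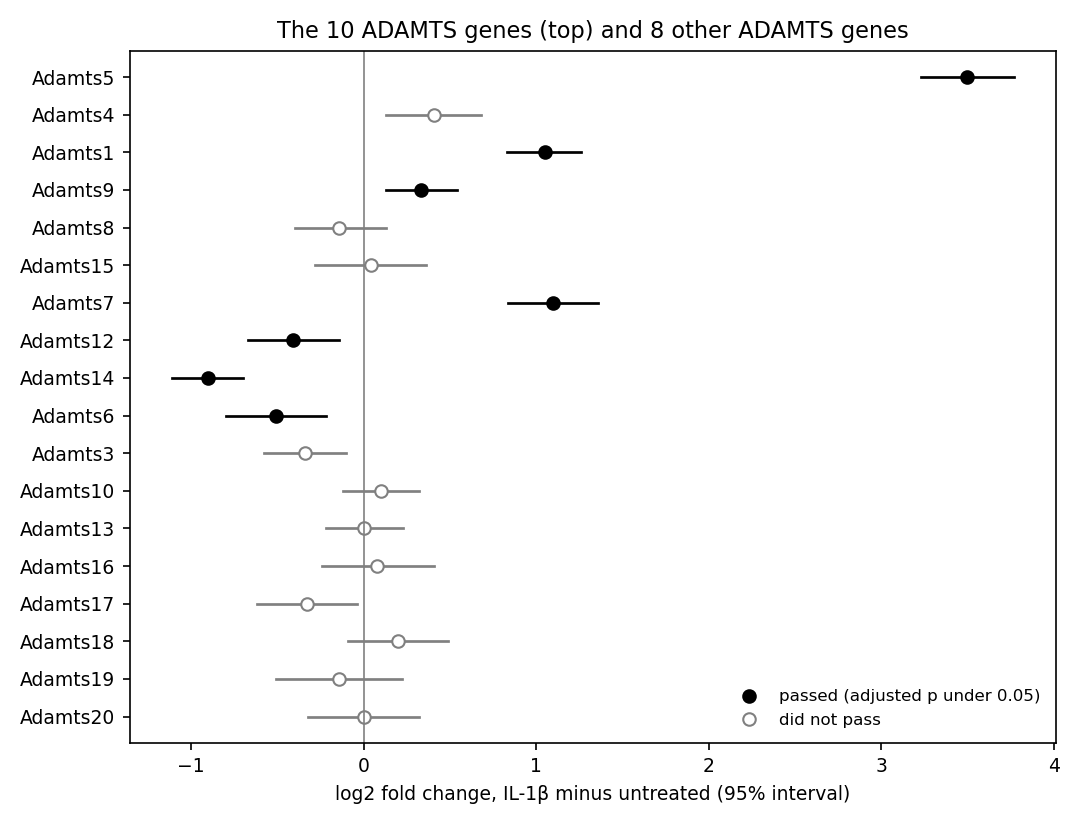
Log2 fold change, IL-1β minus untreated (x axis), with its 95% confidence interval, for the 10 ADAMTS genes (from Adamts5 to Adamts6) and 8 other ADAMTS genes below them. Filled points passed at an adjusted p under 0.05 from limma, open points did not, and all filled points are among the 10.

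**Figure D3:**
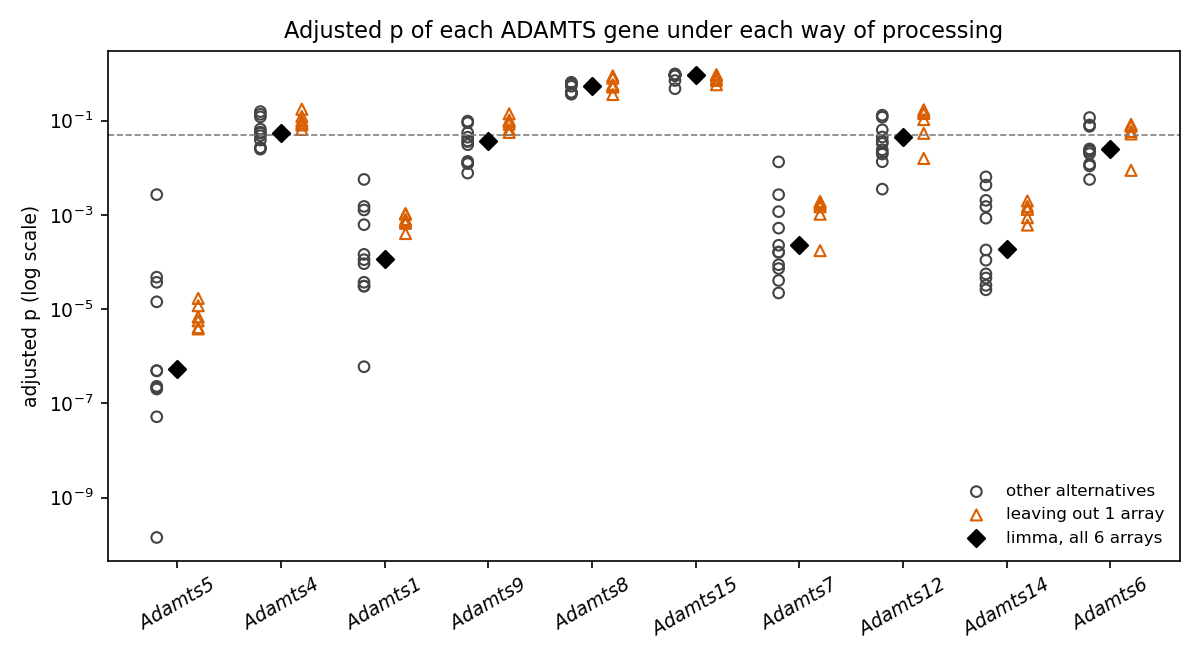
Adjusted p on a log scale (y axis) for each of the 10 ADAMTS genes (x axis) with all 6 arrays (diamonds), with 1 array left out (triangles) and under the other alternatives (circles). Adamts5, Adamts1, Adamts7 and Adamts14 stay under the dashed line at 0.05 throughout, Adamts8 and Adamts15 stay above it, and Adamts4, Adamts9, Adamts12 and Adamts6 lie on both sides.

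The plot of adjusted p shows 4 genes whose call held in every alternative fit (Adamts5, Adamts1, Adamts7 and Adamts14) and 4 whose call depended on the processing (Adamts4, Adamts9, Adamts6 and Adamts12). The last 4 had log2 fold changes of 0.51 or less in size. With the fold limit of 1, which none of these fits applies, Adamts14 (-0.90) was not called either.

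The rest of the ADAMTS family was read on the same arrays. Of 8 other ADAMTS genes measured, limma called 0 at the adjusted p, where 17.2% of all genes were called. At an unadjusted p under 0.05 limma called 2 of the 8 as lower, and 3300 of all 22180 genes. The methods' t-test called 1 of the 8 as lower at an unadjusted p under 0.05 (14.2% of all genes). After adjustment it called 0. Their log2 fold changes ranged from -0.34 to 0.20, with a median of 0.00, and 4 of the 8 had both means under the background level. Adamts3, a procollagen N-proteinase gene like Adamts14 and named after its values were seen, had log2 signals of 4.58, 4.76 and 4.91 with IL-1β, against 5.09, 5.09 and 5.10 without it (log2 fold change -0.34, limma adjusted p = 0.0615). Under 6 alternatives, among them array weights and median centering, Adamts3 was called as lower, and no other gene of the 8 was called under any. Over the 18 measured genes of the whole family, 4 rose, 3 fell and 11 did not pass, where 8.32% of all genes rose and 8.88% fell. Whether the 10 genes and the 8 others differ in their share of calls was not tested. Of 7 measured genes of ADAMTS-like proteins, which have the matrix-binding parts of the family but no protease domain, Adamtsl3 fell by 0.77 on the log2 scale (limma adjusted p = 0.00203) and the other 6 did not pass.

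The substrates of these proteases also moved apart from each other. Acan, the aggrecan gene, had log2 signals of 11.04, 11.23 and 10.87 on the IL-1β arrays, against 12.43, 12.23 and 12.20 on the untreated arrays, and fell by 1.24 on the log2 scale (limma adjusted p = 1.64e-04). Comp had 10.44, 10.49 and 10.27 with IL-1β, against 11.47, 11.20 and 11.21 without it, and fell by 0.89 (limma adjusted p = 6.92e-04). Vcan, which encodes versican, the larger relative of aggrecan in loose connective tissue, went the other way. Its log2 signals were 8.13, 8.26 and 8.33 with IL-1β, against 6.32, 6.40 and 6.39 without it, a rise of 1.87 or 3.65-fold (limma adjusted p = 4.84e-06). The groups of all 3 genes were clear of each other, and the calls held in all 17 alternative fits, while the fold limit of the methods would leave out Comp. Transcripts of the aggrecanase gene Adamts5 and of the substrate gene Acan therefore moved in opposite directions on the same arrays, and protein cleavage was not measured by them. Bcan, a brain proteoglycan gene, passed as lower (limma adjusted p = 0.031) with both means under background, so that it is given without a fold, and it passed under 7 of 15 alternatives. Ncan, another gene of brain proteoglycans, did not pass. Acan and Comp are also among the 9 chondrocyte markers, all lower with IL-1β, and the part of a general shift of these markers in the fall of either was not tested. Of the 5 substrate genes, 1 rose and 3 fell (8.32% and 8.88% of all genes), with a median log2 fold change of -0.37.

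Among 5 genes of fibrillar procollagens, the substrates of Adamts14 and its relatives, 1 rose and 2 fell (8.32% and 8.88% of all genes). Col2a1, the collagen gene of cartilage, fell by 0.51 on the log2 scale (limma adjusted p = 0.00464) and kept its call under all 17 alternative fits. Col1a2 fell by 0.49 (limma adjusted p = 0.0249) and Col3a1 rose by 0.47 (limma adjusted p = 0.0278), where 3 and 2 of the 6 fits with 1 array left out kept the calls of Col1a2 and Col3a1. Col1a1 and Col5a1 did not pass, with log2 fold changes of -0.02 and 0.12.

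Genes that hold ADAMTS activity in check or aid it were divided too. Timp3, which encodes the tissue inhibitor that blocks ADAMTS4 and ADAMTS5 most strongly, had log2 signals of 11.69, 11.72 and 11.66 on the IL-1β arrays, against 12.10, 12.17 and 12.12 on the untreated arrays. It fell by 0.44 on the log2 scale (limma adjusted p = 0.00765), with a gap of 0.39 between the groups. Timp1, which encodes an inhibitor mainly of matrix metalloproteinases, rose by 0.95 (limma adjusted p = 3.65e-04). Timp2, A2m and the dim Timp4 did not pass. Lrp1, which encodes the endocytic receptor that clears ADAMTS5 and TIMP3 from the matrix, had 10.59, 10.53 and 10.58 with IL-1β, against 9.93, 9.75 and 9.67 without it. This was a rise of 0.78 on the log2 scale, or 1.72-fold (limma adjusted p = 7.60e-04). Sdc4, which encodes syndecan-4, a cell surface proteoglycan on which ADAMTS5 activity depends in mouse cartilage, had 11.42, 11.37 and 11.37 with IL-1β, against 10.22, 10.25 and 10.24 without it, and rose 2.22-fold (log2 fold change 1.15, limma adjusted p = 3.69e-05). In all, 3 of these 7 genes rose and 1 fell, where 8.32% of all genes rose and 8.88% fell. The calls of Timp1, Timp3, Lrp1 and Sdc4 held in all 17 alternative fits. Of these 4, Sdc4 alone also passed the fold limit of the methods.

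Among 4 genes of proprotein convertases, which switch on ADAMTS proenzymes, the changes were again in both directions. Pcsk6, which encodes PACE4, a convertase that activates aggrecanases in cartilage, had log2 signals of 6.77, 6.81 and 6.40 on the IL-1β arrays, against 8.25, 8.31 and 8.13 on the untreated arrays. It fell 2.97-fold, a log2 fold change of -1.57 (limma adjusted p = 6.15e-05). Pcsk5, which encodes the related convertase PC5/6, had 6.55, 6.63 and 6.61 with IL-1β, against 5.60, 5.53 and 5.86 without it, and rose by 0.94 (limma adjusted p = 4.46e-04). Furin itself (-0.24, limma adjusted p = 0.13) and Pcsk7 (0.23, limma adjusted p = 0.172) did not pass. Their groups did not overlap, with gaps of 0.16 and 0.03, as was found for 33.0% of all genes.

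**Figure D4:**
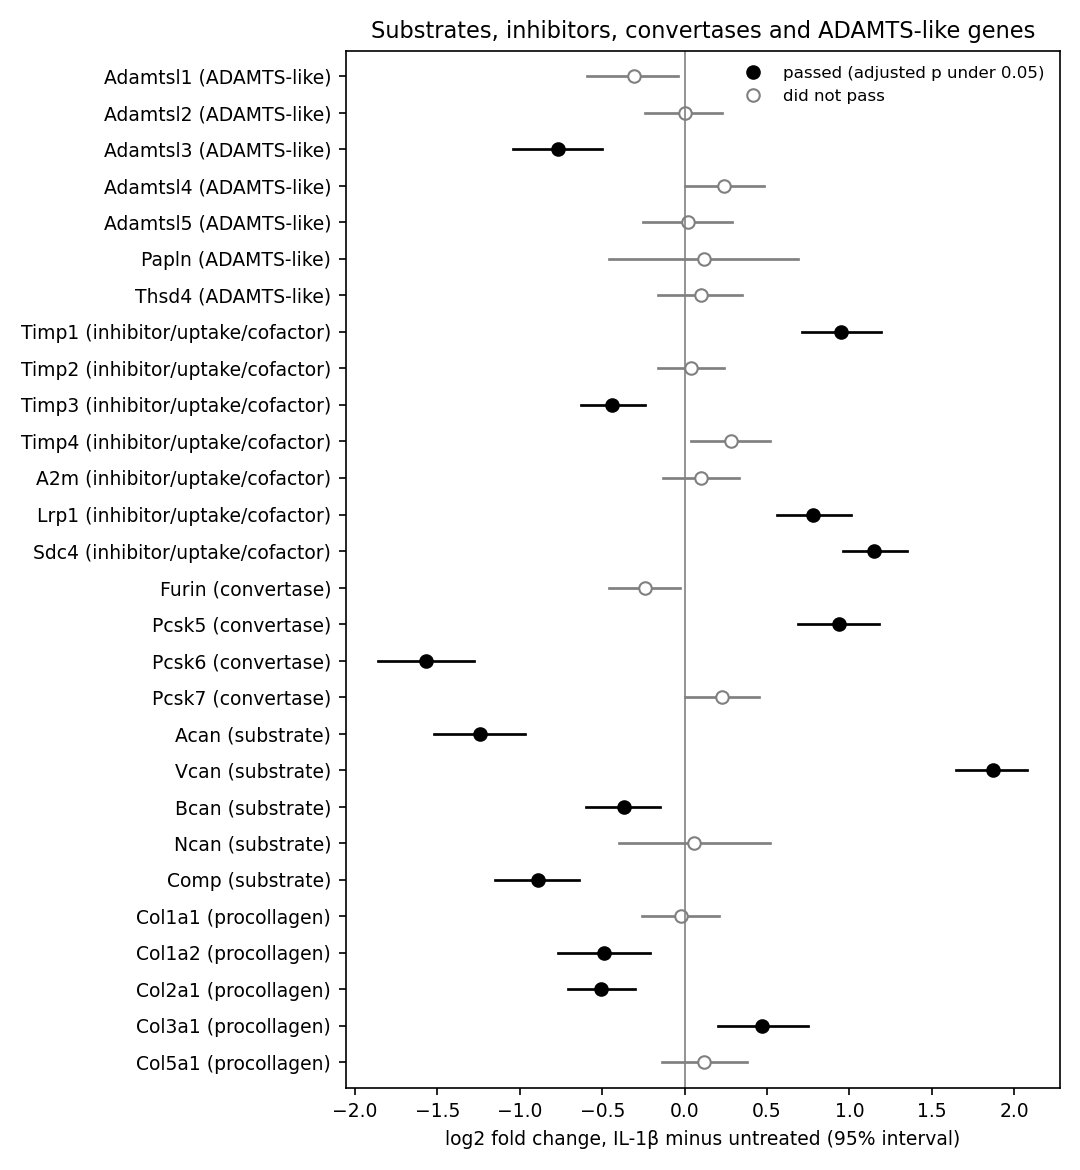
Log2 fold change, IL-1β minus untreated (x axis), with its 95% confidence interval, for 28 genes of ADAMTS-like proteins, inhibitors, uptake and cofactor, convertases, proteoglycan and COMP substrates, and procollagens. Filled points passed at an adjusted p under 0.05 from limma, with Vcan highest at 1.87 and Pcsk6 lowest at -1.57.

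The genes with the pattern most like that of Adamts5 over the 6 arrays were found by the root mean square difference after centring each gene on its own mean. The closest was Fgf7, a fibroblast growth factor gene, with a difference of 0.111. It was followed by Xdh, which encodes xanthine dehydrogenase (0.118), and Slc39a8, which encodes the zinc importer ZIP8 (0.156). Next came Adm, which encodes adrenomedullin (0.169), and Nfkbiz, which encodes the nuclear protein IκBζ (0.187). The log2 fold changes were 3.55 for Fgf7, 3.44 for Slc39a8, 3.76 for Adm and 3.28 for Nfkbiz. Xdh, with an untreated mean of 4.16 under background, was at least 9.36-fold higher with IL-1β. The likeness rests mostly on the size of the change between the groups.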

How the data were processed

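Arrays were Affymetrix GeneChip Mouse Gene ST arrays. The authors normalized probe signals with RMA for each data set separately, and the deposited log2 values (0.909 to 13.04 over 41345 probe sets) were used unchanged. The methods speak of 4 replicates, whereas the labels give 3 a group, and give 1 ng/ml of IL-1β where nothing else is stated. Platform annotation named 1 gene symbol for 23521 probe sets, several for 1820 and none here for 16004, and symbols were updated through Entrez IDs in the GRCm38.p6 gene table. Adamts2 has no probe set of its own in this annotation and is not analysed here.

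limma 3.58.1 in R 4.3.3 (lmFit, eBayes) compared the groups over 22180 genes, and the fit was tested on simulated data. The pathway lists were other ADAMTS genes, ADAMTS-like genes, inhibitors with uptake and cofactor, convertases, substrates and procollagens, besides cell type markers. Members, lists and tests were chosen with earlier results of these data known. Genes named are the 10 members, list members that passed or changed by more than 1 on the log2 scale, and the 5 closest to Adamts5. Other list members are named only to complete a list's count, and these and Adamts3 were chosen after their values were seen.

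Deviations from the group means correlated across genes at 0.101, 0.379 and 0.189 for arrays numbered 1, 2 and 3. These exceed the limit of 0.1 set for pairing, although a crossed pair reached 0.226 and no source says what a number stands for. Replicate number as a block was an alternative. Others were a trend and robust variance prior, array weights, 2 filters on dim genes, median centering, a second quantile normalization, the mean of all probe sets, adjustment over all probe sets, the methods' t-test, the methods' fold limit and leaving out each array. Leaving out replicate 2 of both groups was added after the data were seen. The number of arrays limits the precision.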

Additional observations from a re-analysis of the deposited data

How the results depend on the processing

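The count of genes that rose was 4, and it lay between 3 and 5 under all alternatives run. The count of genes that fell was 3. It became 1 with adjustment over all probe sets and with the methods' t-test, 0 with the methods' fold limit and 1 to 2 when 1 array was left out (2 without IL-1β replicate 3 and 2 without untreated replicate 2, 1 for each of the other 4 arrays). The calls lost were of Adamts6 and Adamts12, with the fold limit of Adamts14 too. With the replicate block 5 genes rose and 2 fell, since Adamts4 gained and Adamts12 lost its call. The block changed no other call among the members or among the pathway list genes that had passed. Adamts15, under background, turned sign with array weights (-0.07), without replicate 2 of both groups (-0.16, chosen after the data were seen) and without IL-1β or untreated replicate 2 (-0.04 and -0.08), and reached 0.16 without untreated replicate 3. It had no value under either filter on dim genes. The causes were not tested. The response of Adamts5 exceeded that of Adamts4 by 2.98 to 3.30 and that of Adamts1 by 2.37 to 2.55 when 1 array was left out. Signal near background limits Adamts4, Adamts6, Adamts7, Adamts8 and Adamts15. Median centering moved the median of all genes to -0.05 on the log2 scale. Over all genes, adjustment over all probe sets left 1264 that rose in place of 1846 and 1300 that fell in place of 1969.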
